A study of Rattus norvegicus with 6 samples.

Results

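The genes described here encode neuronal calcium sensors and proteins that bind calmodulin, and they were measured in rat spinal cord after a contusion and in uninjured cord. The list named 9 genes (Vsnl1, Ncs1, Hpca, Hpcal4, Cabp1, Pcp4, Nrgn, Calm2 and Calm3), and a probe set counted as a member when the array's annotation gave it exactly one of these symbols and no other gene. The rule found 13 probe sets for 8 genes, out of 8740 probe sets and 4736 singly named genes on the array; Calm3 is not analysed here. The genes were selected on the signals of these same 6 arrays, with the difference between contused and uninjured cord already known, so their changes are given as a description, with no p-value, and support nothing.

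Total RNA came from the spinal cord at about thoracic segment 8 of rats, 1 array per sample. In 3 samples the tissue was the epicenter of a contusion, the point of a blunt blow to the cord, at day 35 after injury, and in 3 samples it was the same position in animals with no injury. Strain, sex, age, force of the blow and any agent given are not given in the sources used here, and the uninjured samples carry no day and no sham operation, so surgery, elapsed time and contusion cannot be told apart. Whether the 3 samples of a group were separate animals is not stated, so the p-values given for other genes reflect only how far these arrays differ, and part of that may be technical. Values are the deposited intensities on a linear scale, called signal below; array medians ran from 122 to 127, and the floor, below which a value was treated as background, was a signal of 61.6.

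Calcium sensors turn a rise of calcium in the cell into a change of protein binding. Proteins of the neuronal calcium sensor family, to which Vsnl1, Ncs1, Hpca and Hpcal4 belong, hold calcium in EF-hand loops, and many of them carry a fatty acid that is exposed on calcium binding and draws the protein to membranes. Cabp1 is a relative of calmodulin found mainly in neurons. Calmodulin itself is made in all cells from several genes that encode one and the same protein, and small neuronal proteins such as neurogranin and Pcp4 bind it through an IQ motif and set how much of it is free.

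Sequence is shown for Vsnl1, Cabp1, Pcp4 and Nrgn, the members whose probe sets differed most between contused and uninjured cord: the 250 bases before each start annotated by RefSeq on the rat assembly GRCr8, 5′ to 3′ along the gene. Capitals mark matches, on either strand, to the GC box GGGCGG (read on the other strand as CCGCCC) or the CCAAT box CCAAT (read on the other strand as ATTGG). RefSeq lists 2 starts for Cabp1, and which of them the probe sets report was not tested.
Vsnl1, chr6:39878557-39878806, - strand: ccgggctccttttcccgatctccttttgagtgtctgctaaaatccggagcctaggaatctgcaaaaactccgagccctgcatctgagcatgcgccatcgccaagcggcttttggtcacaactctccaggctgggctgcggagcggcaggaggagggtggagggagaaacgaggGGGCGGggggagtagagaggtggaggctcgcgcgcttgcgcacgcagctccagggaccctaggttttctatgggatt
Cabp1, start site 1, chr12:47085042-47085291, + strand: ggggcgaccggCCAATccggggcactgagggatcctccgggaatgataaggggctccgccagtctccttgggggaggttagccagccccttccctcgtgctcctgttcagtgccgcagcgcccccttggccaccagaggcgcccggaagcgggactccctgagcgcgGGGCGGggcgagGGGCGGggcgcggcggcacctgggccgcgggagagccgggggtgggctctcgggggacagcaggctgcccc
Cabp1, start site 2, chr12:47093669-47093918, + strand: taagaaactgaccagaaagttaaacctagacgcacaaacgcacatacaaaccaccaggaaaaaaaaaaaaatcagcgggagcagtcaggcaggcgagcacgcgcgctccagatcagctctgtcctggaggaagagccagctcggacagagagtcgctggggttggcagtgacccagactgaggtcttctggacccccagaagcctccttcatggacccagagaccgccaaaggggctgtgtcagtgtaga
Pcp4, chr11:49269936-49270185, + strand: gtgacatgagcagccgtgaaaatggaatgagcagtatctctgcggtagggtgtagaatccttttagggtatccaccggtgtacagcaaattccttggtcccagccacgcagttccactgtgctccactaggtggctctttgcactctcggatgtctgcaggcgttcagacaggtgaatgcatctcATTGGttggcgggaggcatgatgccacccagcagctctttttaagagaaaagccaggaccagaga
Nrgn, chr8:45452418-45452667, - strand: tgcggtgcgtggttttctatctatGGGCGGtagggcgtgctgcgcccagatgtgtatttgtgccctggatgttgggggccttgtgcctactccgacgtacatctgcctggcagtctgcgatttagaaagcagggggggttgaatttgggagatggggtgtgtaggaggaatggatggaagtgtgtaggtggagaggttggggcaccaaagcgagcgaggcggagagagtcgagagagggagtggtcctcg
In the same windows the GC box was found in 30.5% and the CCAAT box in 34% of 33469 annotated promoters. One GC box stood 77 bases before the start of Vsnl1 and one 226 bases before that of Nrgn. The first start site of Cabp1 had a pair of GC boxes, 83 and 71 bases before it, and a CCAAT box 239 bases before it, while its second start site had neither motif. Pcp4 had a CCAAT box on the other strand, 65 bases before its start. Neither the TATA box TATAAA, found in 12.9% of all promoters, nor the cyclic AMP response element TGACGTCA, found in 1.59%, was in the windows of the 7 members with an entry. The share of G and C was 60.8% before Vsnl1, 75.2% and 54.8% before the first and second starts of Cabp1, 52.4% before Pcp4 and 58% before Nrgn, beside a median of 51.2% over all promoters. Before Ncs1, whose brighter probe set overlapped between the groups, it was 80.8%, with none of the motifs searched. Before Hpcal4, which had no probe set past the threshold used below, it was 66.4%, with GC boxes 241 and 128 bases before the start. Before Hpca, which passed as lower, it was 50.8%, with a CCAAT box 138 bases before the start and no GC box. A match describes the letters only.

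Among the neuronal calcium sensors, Vsnl1 (visinin-like protein 1, which cycles between cytosol and membrane with calcium) was far lower in the contused cord. Its probe set D10666_at gave signals of 139, 151 and 248 on the contused arrays, against 652, 761 and 737 on the uninjured arrays. All contused arrays lay well below all uninjured ones, and the highest contused value was 38.1% of the lowest uninjured value. The contused arrays differed more among themselves than the uninjured arrays did, with array 3 the highest, and the means were 179 ± 60.1 and 717 ± 57.5 (SD, n = 3 each). The log2 change was -2.05 (SE 0.21), a 4.13-fold lower signal.

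Hpca encodes hippocalcin, a sensor best known from hippocampal neurons. It gave 310, 234 and 253 on the contused arrays and 433, 426 and 463 on the uninjured arrays, so the groups did not overlap but lay closer together than for Vsnl1. The log2 change was -0.74 (SE 0.15), 1.67-fold lower.

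Hpcal4, a close relative of hippocalcin, had 3 probe sets, and none of them passed the threshold of the fit over all probe sets. The brightest, D14819_g_at, gave 159, 152 and 146 in the contused cord and 194, 174 and 205 in the uninjured cord. These groups stood apart by a narrow gap, with a log2 change of -0.32 (SE 0.14). Probe set D13125_at gave 91.8, 87.9 and 78.2 against 79.4, 111 and 115 in uninjured cord, with overlapping groups and a log2 change of -0.23 (SE 0.16). Probe set D14819_at was above the floor only on contused array 2, at 75.7, and was not tested.

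Ncs1, the sensor also called frequenin, which acts on a phosphatidylinositol 4-kinase and on dopamine receptors, was read differently by its 2 probe sets. Probe set rc_AI136914_at gave 573, 422 and 491 on the contused arrays and 541, 358 and 495 on the uninjured arrays. The groups overlapped, and the log2 change was 0.1 (SE 0.18). Probe set L27421_at gave 31.6, 30.9 and 34 on the contused arrays against 59, 61.9 and 60.4 on the uninjured arrays, without overlap. Only 1 of these 6 values lay above the floor, so the probe set was not tested. With a lower floor, the pooled 10th percentile, it entered the fit at a log2 change of -0.91 (SE 0.14) and passed the threshold. Which probe set reports the level of Ncs1 was not tested.

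Cabp1, also known as caldendrin, binds calcium channels and inositol trisphosphate receptors, and both of its probe sets were lower in contused cord. Probe set Y17048_g_at gave 178, 172 and 173 in the contused cord and 395, 451 and 482 in the uninjured cord. The contused values were nearly equal to each other, and the groups were separated by more than the spread of either. The dimmer Y17048_at gave 80.3, 73.2 and 104 against 208, 204 and 211 in uninjured cord, again without overlap. The log2 changes were -1.34 (SE 0.14) and -1.29 (SE 0.16); with the floor raised to the 50th percentile that of Y17048_at was -0.73. Both probe set names carry the same sequence accession, so they are not independent readings.

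**Figure D1:**
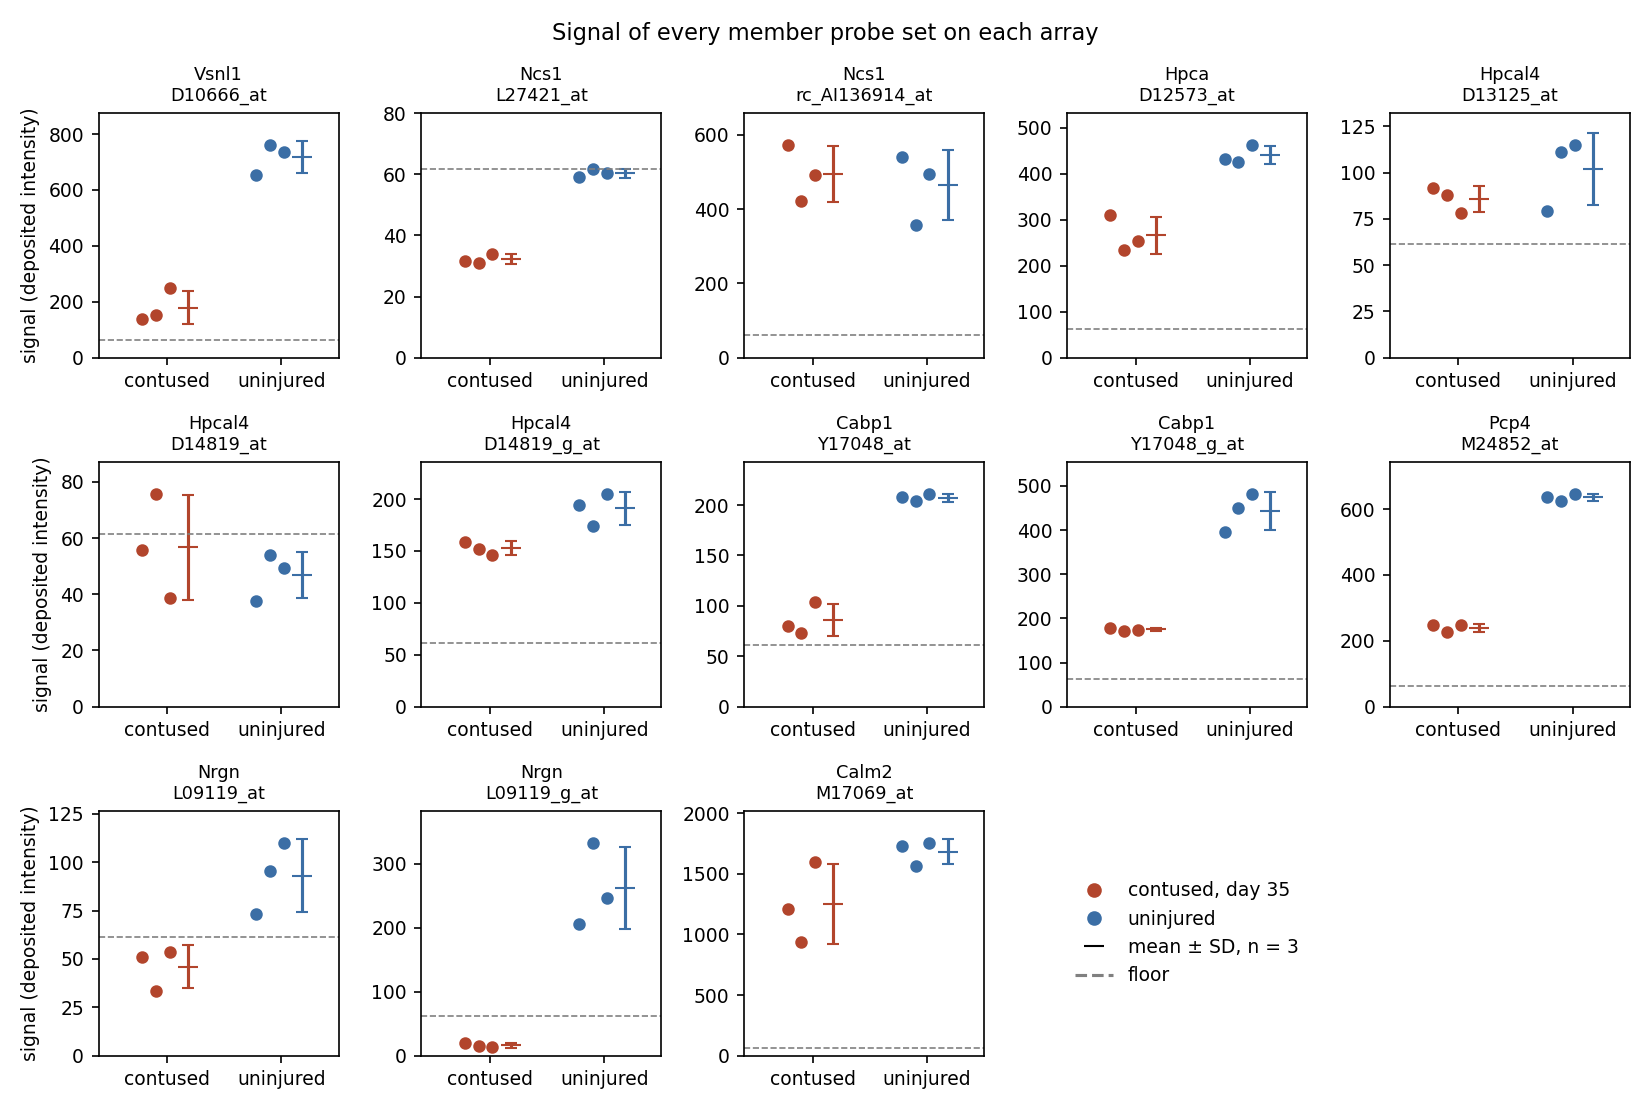
Signal of the 13 member probe sets on each array (points; y axis, deposited intensity on a linear scale from 0), contused arrays at left and uninjured arrays at right, with mean ± SD beside the points and the floor of 61.6 dashed. Vsnl1, Hpca, Cabp1, Pcp4 and Nrgn had every contused array below every uninjured array, while Calm2, Ncs1 rc_AI136914_at and Hpcal4 D13125_at and D14819_at overlapped.

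Among the small calmodulin-binding proteins, Pcp4 (also called PEP-19, which speeds the exchange of calcium at calmodulin) had closely spaced values within each group. It gave 248, 226 and 247 on the contused arrays and 636, 625 and 646 on the uninjured arrays. The spread within the groups was small beside the gap between them, with means of 240 ± 12.1 and 636 ± 10.7 (SD, n = 3 each). The log2 change was -1.4 (SE 0.13), 2.65-fold lower.

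Nrgn encodes neurogranin, a postsynaptic protein that holds calmodulin while calcium is low. Probe set L09119_g_at gave 20.3, 15 and 13.4 on the contused arrays and 206, 333 and 247 on the uninjured arrays. Every contused array was at or under the floor, so the fall was at least 4.17-fold. The dimmer probe set L09119_at gave 51.1, 33.6 and 53.7 against 73.3, 95.6 and 110 in uninjured cord. Here too the contused arrays were under the floor, and the fall was at least 1.49-fold. Both probe set names begin with L09119, so, as for Cabp1, they are not independent readings. How far neurogranin lay below the floor could not be read from these arrays: the log2 change of L09119_g_at was -3.04 with the floor moved down to the 10th percentile and -1.04 with it moved up to the 50th. The call of L09119_at ended when any of contused arrays 1, 2 and 3 or uninjured arrays 2 and 3 was left out, with log2 changes of -0.58, -0.58, -0.58, -0.55 and -0.44.

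Calm2 is one of the genes for calmodulin, the sensor that cells of all types use. It gave 1209, 941 and 1600 on the contused arrays and 1732, 1565 and 1755 on the uninjured arrays. Contused array 3 lay above uninjured array 2, so the groups overlapped, and the log2 change of -0.46 (SE 0.18) did not pass the threshold. Without contused array 3 the log2 change was -0.66 and passed.

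In all, 11 of the 13 probe sets lay above the floor on at least 3 arrays and were tested, and 7 of them, in 5 genes, passed an adjusted p of 0.05 in limma, all lower after contusion. Of all 6705 probe sets tested, 17.4% passed, 9.59% lower and 7.79% higher. The groups did not overlap for 9 of the 13 probe sets, all lower, and 8 of these were tested. Among all tested probe sets the share without overlap was 34.8% in either direction and 18.2% lower. That share was read after values under the floor were set to it, while the members were read from the deposited signals. The untested Ncs1 probe set L27421_at has no counterpart in that share. With each gene represented by its brightest tested probe set, the median log2 change over the 8 genes was -1.04, and over all 3955 genes tested it was -0.016. Because the genes were chosen for this comparison, and because the filter keeps a dim probe set only through its brighter group, these counts and medians describe the list and nothing is read from them. With 1 array left out, 6 or 7 of the 11 probe sets passed.

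**Figure D2:**
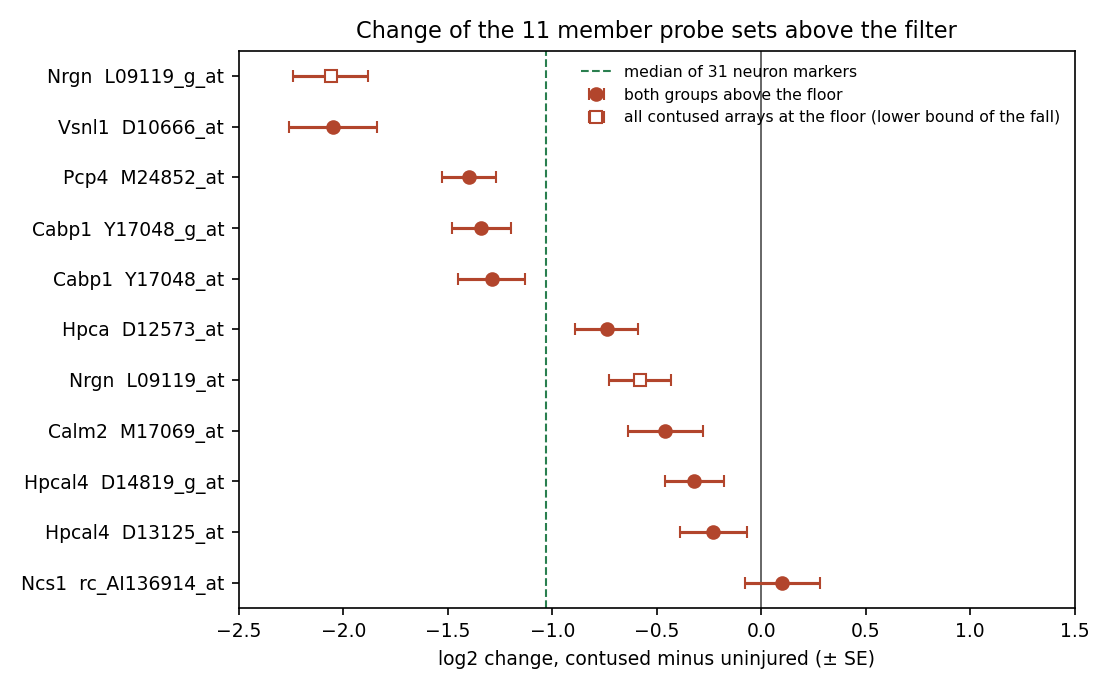
Log2 change (x axis, contused minus uninjured, ± SE from limma) of the 11 tested member probe sets. Filled circles had signal above the floor in both groups; open squares are the Nrgn probe sets, with every contused array at the floor, so that the fall is a lower bound. The dashed line is the median of 31 neuron markers, -1.03.

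The members were not lowest on the same array throughout. Of the 13 probe sets, 8 were lowest among the contused samples on array 2, 4 on array 3 and 1 on array 1. Among the uninjured samples array 3 was the lowest for 0 of the 13 and the highest for 8. The highest contused value was 1.04 times the lowest for Cabp1 Y17048_g_at, 1.79 times for Vsnl1 and 1.96 times for the untested Hpcal4 D14819_at.

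Markers of neurons fell in the same samples. Of 31 tested genes of the general neuron list, 25 were lower and 0 higher in the fit over all probe sets (adjusted p of 0.05, limma), beside 9.91% of all genes lower, and their median log2 change was -1.03. Thy1, a surface glycoprotein of neurons, gave 607 ± 36.1 against 2076 ± 224 in uninjured cord (log2 change -1.77, adjusted p = 1.77e-05, limma). Cplx1 (complexin 1, which clamps vesicle fusion) and Dnm1 (dynamin 1, which pinches off vesicles) were 2.53-fold and 2.41-fold lower (adjusted p = 0.000186 and 0.000117). The summed signal of the list was 13476 to 14831 in contused cord, against 25575 to 30161 in uninjured cord. In bulk tissue, fewer cells of a type and less RNA per cell cannot be told apart, and the part of neuron content in the members' changes was not tested.

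Set against the mean log2 signal of the 31 neuron markers on the same array, the members spread in both directions. Relative to that mean, the log2 signal of Vsnl1 was -1.0, -0.87 and -0.41 on the contused arrays and 0.29, 0.35 and 0.25 on the uninjured arrays, a difference of -1.06 beyond the markers. Of the 31 markers, 0 fell further than Vsnl1, or than Nrgn at its bound. The log2 changes of the markers ran from -1.77 (Thy1, SE 0.13) to 0.06, beside -2.05 (SE 0.21) for Vsnl1. The marker Scn2a was at the floor on all contused arrays, so its fall is a bound as well. For Nrgn, at its bound, the difference was -1.07, for Pcp4 it was -0.42 and for Cabp1 -0.35, with 5 and 8 markers falling further than Pcp4 and Cabp1. For Hpca the difference was 0.25, with overlapping groups at 0.16, -0.23 and -0.38 on the contused arrays and -0.3, -0.49 and -0.42 on the uninjured arrays, and 23 of the 31 markers fell further. The difference was 0.53 for Calm2, 0.67 for Hpcal4 and 1.09 for Ncs1 by its brighter probe set, without overlap. The markers and the members were read in the same 6 samples, so these differences are a description.

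**Figure D3:**
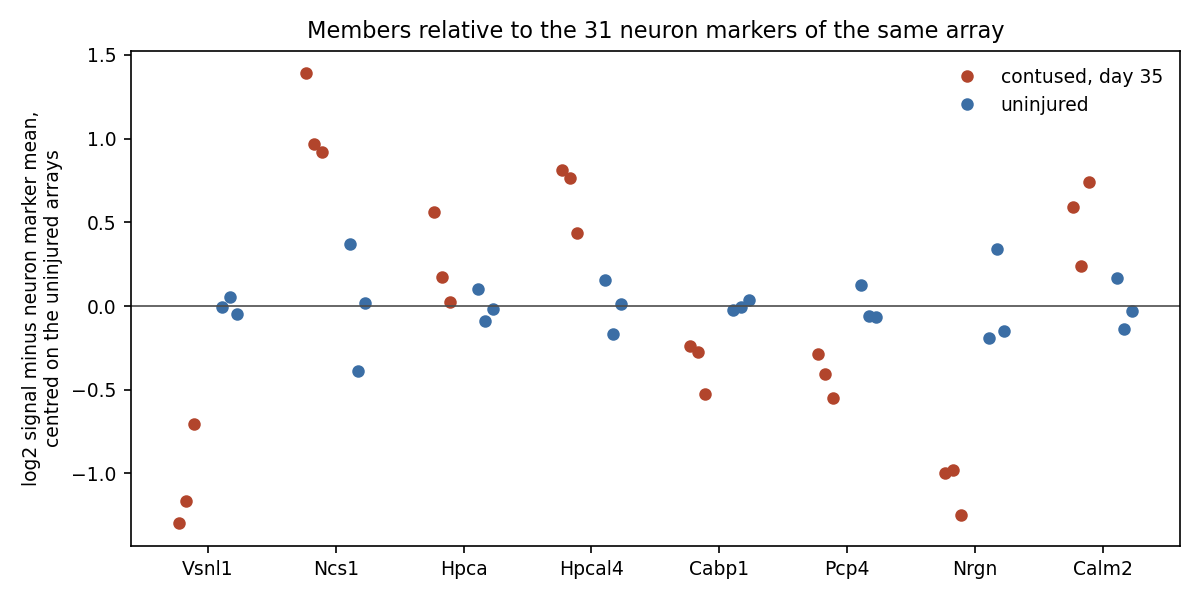
Log2 signal of each member's brightest tested probe set minus the mean log2 signal of 31 neuron markers on the same array (y axis), centred on the uninjured arrays. Points are arrays, contused left and uninjured right of each gene: Vsnl1, Cabp1, Pcp4 and Nrgn lay below 0 on all contused arrays, and Ncs1, Hpca, Hpcal4 and Calm2 above it.

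Markers of other cell types differed between the groups as well. Of 16 tested markers of microglia and macrophages 15 were higher and 0 lower (median log2 change 1.36), beside 7% of all genes higher, and their summed signal was 12463 to 13125 in contused and 4356 to 5373 in uninjured cord. Of 12 myelin and oligodendrocyte markers 5 were lower (Mog, Mobp, Gjb1, Enpp2 and Ugt8) and 0 higher, with sums of 18725 to 19686 and 22525 to 23578. Meningeal and fibroblast markers had 5 higher (Col1a2, Col3a1, Fn1, Ptgds and Igfbp2) and 0 lower of 12, with sums of 13019 to 15443 and 6672 to 11333; uninjured array 3 had the lowest mean log2 signal of this list, 8.32, against 9.12 and 9.31 on the other uninjured arrays. Astrocyte markers had 3 higher of 14 (Gja1, Fabp7 and Vim) and lymphocyte markers 1 higher of 7 (Cd4). Motor neuron markers had Isl2 higher and Ache and Slc18a3 lower of 8, and sensory ganglion markers P2rx3 higher and Tac1 lower of 6. By limma, 0 of 9 Schwann markers passed, with 2 under an unadjusted p of 0.05 and 2 passing after quantile normalization, and 0 of 9 endothelial and mural markers passed, with 1 under an unadjusted p of 0.05. With the mean of a gene's probe sets, the endothelial glucose transporter gene Slc2a1 was lower (log2 change -0.66, adjusted p = 0.01, limma), and 1 of its 2 probe sets passed. Other marker genes were also left out of the counts because their brightest probe set did not pass. Of their tested probe sets, 3 of 4 passed for Col1a1, 2 of 3 for Mapt, 1 of 3 for Mag and 1 of 2 for Car2. Conversely, some counted genes had tested probe sets that did not pass. For Map2 1 of 4 passed, for Igfbp2 1 of 3, and for Tac1, Slc32a1, Ptprc and C1qc 1 of 2. For Ache and Aif1 2 of 3 passed, and for Fn1 3 of 4. These counts of probe sets take either direction. With 1 array left out, the microglial count was 12 to 15, the neuron count 23 to 25 and the myelin count 5 or 6. Without contused array 2, 1 astrocyte and 1 meningeal gene passed, Slc18a3, P2rx3 and Tac1 did not, and the microglial count was 12. Without uninjured array 3, 1 astrocyte and 3 meningeal genes passed, Slc18a3 and P2rx3 did not, and the microglial count was again 12. Without contused array 1, 2 astrocyte and 3 meningeal genes passed, and P2rx3 did not, as it did not without uninjured array 2. The astrocyte count was also 2 without contused array 3 and without uninjured arrays 1 or 2, and 1 more motor neuron gene was lower without uninjured array 1. A Schwann cell gene was higher without contused arrays 1 or 3 or uninjured array 2. Without contused array 1 this gene was Pmp22 (adjusted p = 0.0288, limma). Of the microglial list 0 tested genes were at the floor on all contused arrays and 3 on all uninjured arrays. The part of these shifts in the members' changes was not tested.

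Other genes of calcium and calmodulin signalling were read from lists by role. Of 122 listed genes 83 were on the array and 75 were tested, of which 17 were lower and 1 higher, 24% called, beside 16.9% of all genes. Their median log2 change was -0.15, and 22.7% were lower, beside 9.91% of all genes. These counts read each gene by its brightest tested probe set. Camkv, Add1, Camk2d, Camk2n1, Ppp3r1, Atp2a2 and Cacna1c were not called by it, though 1 dimmer probe set of each passed. Whether those dimmer probe sets were lower or higher is not given here.

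Of the other EF-hand sensors, 2 were tested. Hpcal1 (VILIP-3, a close relative of hippocalcin) gave 159, 163 and 154 in contused cord against 221, 263 and 267 in uninjured cord (log2 change -0.65, SE 0.14, adjusted p = 0.0103, limma), without overlap. Without uninjured array 3 its adjusted p was 0.0594. Sri (sorcin, a sensor of muscle and other cells) had a log2 change of 0.11.

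The calcium buffers, EF-hand proteins that soak up calcium, had 3 lower of 4. Pvalb (parvalbumin) was 3.63-fold and Calb2 (calretinin) 2.62-fold lower, with adjusted p = 0.000102 and 0.00013 in limma. Calb1 (calbindin) had a log2 change of -0.75 (adjusted p = 0.0276), a call that ended without any of contused arrays 1 and 2 (0.117 and 0.12) and uninjured arrays 1, 2 and 3 (0.0677, 0.0883 and 0.079).

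Of 13 other calmodulin-binding proteins 3 were lower. Pcp4l1, a relative of Pcp4 with the same type of motif, gave 127, 106 and 111 in contused cord and 256, 297 and 249 in uninjured cord (log2 change -1.22, SE 0.15, adjusted p = 0.000373, limma). The groups of Pcp4l1 did not overlap. Rasgrf1, a calcium-dependent activator of Ras, was 2.2-fold lower (adjusted p = 0.000695). Map6, which stabilises microtubules, was 1.46-fold lower (adjusted p = 0.0167), a call lost without contused array 2 (0.0638) or uninjured array 3 (0.0681).

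Among 15 kinases and phosphatase genes that calmodulin switches on, or their inhibitors, 3 were lower. Ppp3ca, the catalytic subunit of the phosphatase calcineurin, gave 368, 335 and 383 in contused cord and 682, 769 and 784 in uninjured cord (log2 change -1.04, SE 0.13, adjusted p = 0.000442, limma). No contused array came near an uninjured one. Camkk1, a kinase that activates other calmodulin kinases, was 1.81-fold lower (adjusted p = 0.00242). Camk2n2, an inhibitor of calmodulin kinase II, was 1.89-fold lower (adjusted p = 0.0121), with 0.0557 when contused array 2 was left out. Without uninjured array 1 the list had 5 lower.

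Of the 7 cyclase, phosphodiesterase and nitric oxide synthase genes 0 passed in limma, and 2 had an unadjusted p under 0.05. These were Pde1b, a calmodulin-activated phosphodiesterase, and Adcy3, an adenylate cyclase, named after their values were seen, with log2 changes of -0.45 and -0.42 (adjusted p = 0.0541 and 0.0731, limma). The list had 2 lower of 5 tested with the floor raised to the 50th percentile, and 1 lower of 7 with no floor, after quantile normalization, with equal array medians, without the intensity trend and with the mean of a gene's probe sets. The brightest, Nos1 and Nos2, the neuronal and inducible nitric oxide synthases, had log2 changes of 0.01 (SE 0.16) and 0.1 (SE 0.16).

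Of 22 genes of calcium entry, store and extrusion 4 were lower. Cacna2d1, an auxiliary subunit of calcium channels, gave 70.8, 76.7 and 44 in contused cord and 172, 192 and 172 in uninjured cord (log2 change -1.36, SE 0.14, adjusted p = 0.000145, limma). Contused array 3 lay under the floor, so the log2 change understates the difference. The plasma membrane calcium pumps Atp2b2 and Atp2b3 were 2.31-fold and 2.18-fold lower (adjusted p = 0.000573 and 0.00189); of 3 probe sets for Atp2b3, 2 passed. Slc8a3, a sodium-calcium exchanger, was 1.45-fold lower (adjusted p = 0.0186), a call lost without contused array 2 (0.0863) or uninjured array 3 (0.0869).

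Of 12 genes listed as known binding partners of the sensors 3 were lower and 1 higher, and 1 of the 3, Syn1, is also counted in the neuron list. Syn1 (synapsin 1 of synaptic vesicles) was 2.22-fold lower, Gria2, an AMPA receptor subunit, 2.06-fold and Dlg4, the postsynaptic scaffold PSD-95, 1.62-fold (adjusted p = 0.00151, 0.00387 and 0.00475, limma). Gria2 had 2 tested probe sets, of which 1 passed. Chrnb2, a nicotinic receptor subunit, was 1.45-fold higher (adjusted p = 0.0492), and the call was lost without contused arrays 1, 2 or 3 (0.154, 0.0928 and 0.06) and without uninjured arrays 1 or 2 (both 0.145). Pi4kb, the lipid kinase that binds Ncs1, gave 272 against 267 in uninjured cord (log2 change 0.02); it was chosen after its value was seen.

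**Figure D4:**
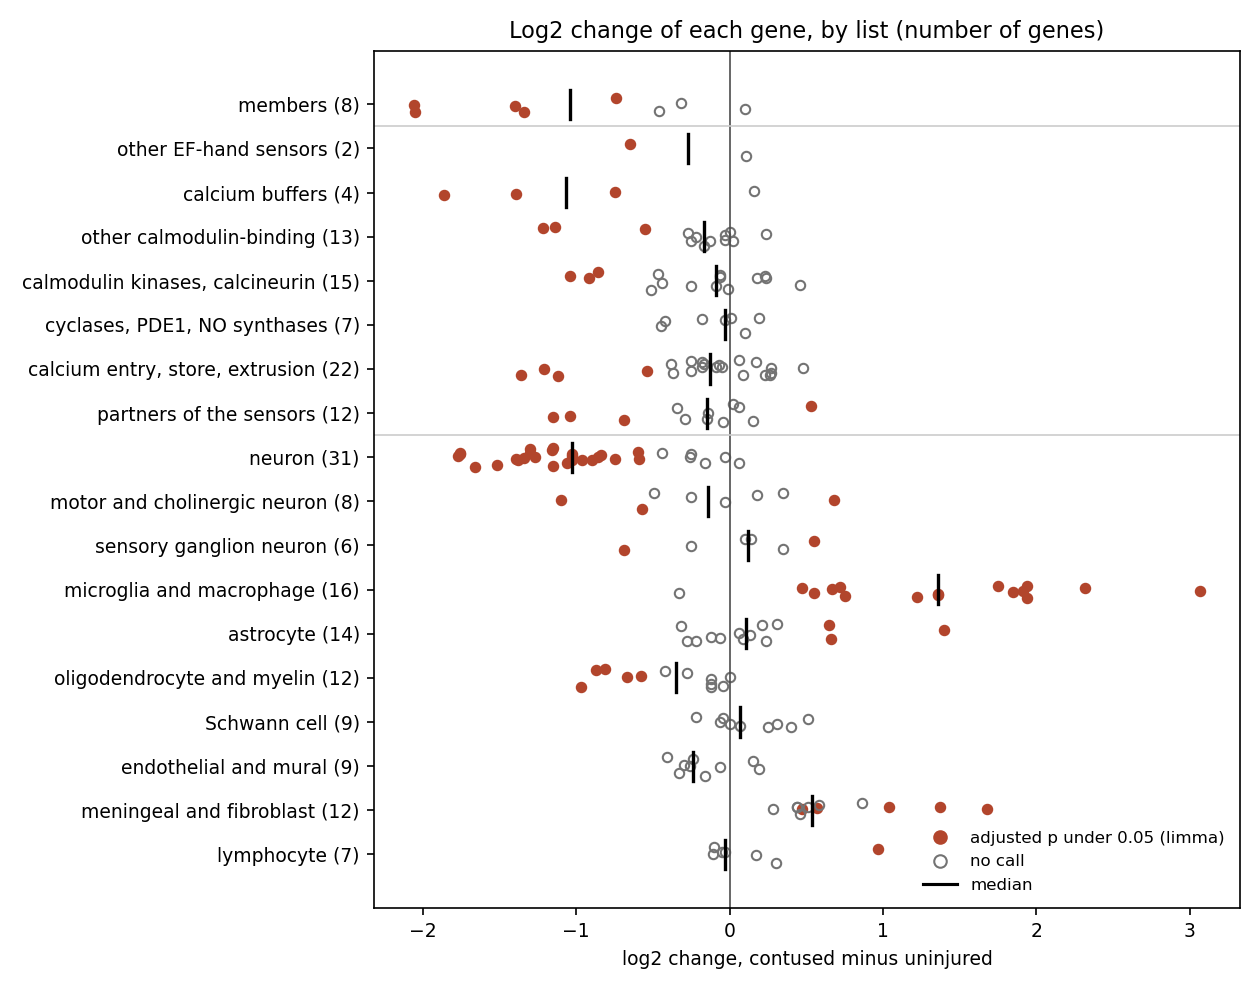
Log2 change (x axis, contused minus uninjured) of each gene, by list (rows, number of tested genes in brackets), with filled points past an adjusted p of 0.05 in limma, open points not past it and a black bar at the median. The 8 members had a median of -1.04, the neuron markers -1.03, the calcium buffers -1.07 and the other calcium and calmodulin lists -0.27 to -0.03.

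The genes with the most similar pattern over the 6 arrays were found by Pearson's r of log2 signal, as a description without a test, since the arrays fall into the contused and uninjured groups and r then follows the gap between them. For Vsnl1 they were Atp5f1c, a subunit of ATP synthase (r = 0.9986), and Rab6a, a GTPase of the Golgi (0.9969). Those of Cabp1 were Thy1 (0.9982) and the neurofilament gene Nefl (0.9977). For Nrgn they were the sodium channel gene Scn2a (0.9994) and Lin7b, a synaptic scaffold gene (0.9993), both under the floor on average in contused cord, at 43 and 48.8. Values under the floor entered r as the floor, so Nrgn and Scn2a were each constant over the contused arrays, which raises their r. Pcp4 was matched by Msmo1, an enzyme of cholesterol synthesis (0.9980), and Klc1, a kinesin light chain (0.9965). The closest to Hpca were Fabp4 (0.9922) and Pebp1 (0.9920), and to Hpcal4 Csf1 (0.9804) and Cnr1 (0.9706); Fabp4 and Cnr1 averaged under the floor in contused cord, at 51.4 and 30.3. Calm2 lay closest to Scaf1 (0.9780) and Dzip3 (0.9748), and the brighter probe set of Ncs1 to Sgk2 (0.9842) and Sctr (0.9830).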

How the data were processed

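The authors deposited 1 intensity per probe set and array for 6 rat spinal cord samples; that the scale is linear was read from the values, which are skewed, with 21 to 32 below 0 per array. No source used here states how probes were summarised or arrays scaled. Trimmed array means (2% at each end) ran from 209 to 228, within the 10% set as the limit, so no scaling was added. The 59 control probe sets were left out. Values under the pooled 25th percentile (61.6) were set to it, log2 was taken, and probe sets above it on at least 3 arrays were fitted with limma 3.58.1 in R 4.3.3 (lmFit, eBayes with an intensity trend, no covariates, 4 residual degrees of freedom), two-sided, with Benjamini-Hochberg adjustment over all 6705 tested and a threshold of 0.05. The steps were tested on simulated arrays. Signal errors are SDs over 3 arrays; SEs are limma's. An exact permutation test of 3 against 3 cannot go below 0.1, and none was used. The number of arrays limits the precision.

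Groups came from the sample titles. Member symbols are those of the array's annotation; other symbols were updated by gene identifier to GRCr8, which matched 6985 of 7006 singly named probe sets. Each listed gene is read by its brightest tested probe set. Named genes are all member probe sets; per role list up to 4 risen and 4 fallen with the smallest p, or the 2 brightest where none passed; per marker list up to 3 and 3, of which a few are given; and 2 genes of most similar pattern per member. Members, lists and tests were chosen with earlier results of these data known. Where all contused arrays were at the floor, a fold is the uninjured mean log2 signal against the floor, given as "at least". Alternatives were the floor, the scaling, the filter, the trend, a replicate block, 1 array left out and the mean of a gene's probe sets. Tables were joined in Python 3.11.15 (pandas 2.3.3), and matplotlib 3.10.9 made the plots.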

Additional observations from a re-analysis of the deposited data

How the results depend on the processing

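The count of probe sets past the threshold was 662 of 8740 without the filter on dim probe sets, against 1165 of 6705 with it, and 659 to 1260 with 1 array left out, the lowest without uninjured array 3 and 723 without contused array 2. Of the member probe sets 6 to 8 passed over the settings that kept single probe sets, and with the mean of a gene's probe sets 5 of 8 genes did. The median log2 change over member genes stayed between -1.1 and -0.89, the called calcium and calmodulin genes between 13 and 20 and the called marker genes between 40 and 64. No member reversed a call. The Nrgn probe set L09119_at lost its call without the filter and in 5 of the 6 fits with 1 array left out. Without the filter on dim probe sets, Calb1, Camk2n2, Slc8a3, Gria2 and Chrnb2 did not pass (adjusted p = 0.158, 0.0995, 0.0556, 0.0582 and 0.132, limma). Nor did the markers Gja1, Fabp7, Vim, Col1a2, Fn1, Slc18a3, Tac1 and P2rx3 (0.143, 0.108, 0.0564, 0.134, 0.137, 0.0542, 0.0531 and 0.139), which left 0 astrocyte and 1 meningeal gene higher. At a floor of the 50th percentile Calb1 and Cd4 did not pass (0.462 and 0.0827). The cause was not tested. Deviations from the group means of same-numbered arrays correlated at 0.0415, 0.222 and -0.244, and those of differently numbered arrays at -0.267 to 0.267. The deviations of the 3 arrays of a group sum to 0, so these values cannot decide whether the numbers pair the arrays. With the replicate number as a block, 1200 probe sets and 8 member probe sets passed, Calm2 among them, and 17 calcium and calmodulin genes, without Chrnb2 (0.0545), which also did not pass at a floor of the 10th percentile (0.0532) or with equal array medians (0.0509). Contused array 1 correlated best with uninjured array 3. Values near the floor, above all Nrgn and Ncs1 L27421_at, are limited by signal over background.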
